A study of Danio rerio with 28 samples.

Results

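The mitochondrial genome of the zebrafish (Danio rerio) supplied 37 of the 32520 genes in the count table, chosen as the genes that the table places on the chromosome it calls MT. They are 13 protein genes, 2 ribosomal RNA genes and 22 transfer RNA genes. The table itself names the 13 protein genes. The 24 RNA genes carry clone-type symbols there, and were named from the RefSeq gene table by identical start and end, a match that held for 37 of 37 genes and gave the table's own name for 13 of the 13 it names.

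All libraries came from whole embryos injected with s4UTP, a sulfur-bearing uridine nucleotide that newly made RNA takes up, and the labelled RNA was biotinylated and captured on beads. Libraries were made with a stranded kit without selection for poly(A) tails. Wild type embryos and mir430-/- embryos, which lack the miR430 microRNA genes and were also injected with miR430, were each sampled at 4 stages (256c, 1024c, Oblong and Sphere) in 3 libraries treated with iodoacetamide (IAA), the reagent that marks labelled uridines in SLAM-seq. IAA was left out of another 4 wild type libraries, of which each stage has 1. Below, mutant means mir430-/- embryos with injected miR430, so the deletion, the injected microRNA and the background of the line cannot be told apart. Replicates are biological by their titles, but whether they came from separate clutches is not stated, and p-values measure only the spread between these libraries.

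In vertebrates, mitochondrial DNA is transcribed by its own single-subunit polymerase into long RNAs that run through many genes on the heavy or the light strand. Transfer RNAs lie between most of the other genes, and their excision releases the messenger and ribosomal RNAs. A zebrafish egg carries a large maternal store of mitochondria, and mitochondrial genes do not wait for the embryo's nuclear genome to be activated. The protein genes encode subunits of respiratory complexes I (mt-nd1 to mt-nd6 and mt-nd4l, NADH dehydrogenase), III (mt-cyb, cytochrome b), IV (mt-co1 to mt-co3, cytochrome oxidase) and V (mt-atp6 and mt-atp8, ATP synthase). The ribosomal RNAs are mt-rnr1 of the small and mt-rnr2 of the large mitochondrial subunit, and each trn gene is named by the letter of its amino acid.

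By the strand the table gives, 28 genes lay on the heavy-strand side (12 protein genes, both ribosomal RNAs and 14 transfer RNAs) and 9 on the light-strand side (mt-nd6 and 8 transfer RNAs). In the table's coordinates the genes ran from trnF (MT, 951 to 1019, plus strand) to trnP (MT, 16527 to 16596, minus strand). Transfer RNA genes were 68 to 77 bases long. Of the 36 pairs of neighbours, 23 abutted or overlapped and 10 overlapped, 8 of these on the same strand and by up to 7 bases (mt-atp8 with mt-atp6, and mt-nd4l with mt-nd4). The sources used here give neither how a read across 2 such genes was counted nor how reads shared with nuclear copies of mitochondrial sequence were treated, so counts of the shortest genes are the least certain.

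The IAA libraries held 4960211 to 13803137 counts. The libraries without IAA were shallower, with 1105928, 805124, 143490 and 786123 counts in order of stage. Every member had counts in every IAA library. Among nuclear genes, all 7 listed markers of the blastula embryo were in the table and summed to 1420 to 6530 CPM of nuclear counts over the IAA libraries, whereas 6 listed markers of differentiated tissue summed to 0 to 4.73 and 4 of follicle and ovary to 0 to 24.4. The 5 listed markers of the enveloping layer summed to 0 to 5018 and the 2 of the yolk syncytial layer to 450 to 9085. The library without IAA at Oblong stood apart. Its mitochondrial profile correlated at r = 0.743 to 0.815 with the 24 IAA libraries over the 23 genes it detected (log2 shares, across genes of shared libraries), against at least 0.971 for each other library, and tests against the libraries without IAA are therefore also given without it.

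Mitochondrial genes took most of the counts of the early embryo and a smaller part at Sphere. In wild type with IAA, the 37 genes made up 97.4%, 98.8% and 97.3% of all counts at 256c and 92.8%, 94.8% and 93.6% at 1024c. At Oblong the values were 94.0%, 87.8% and 86.8%, and at Sphere 87.1%, 59.9% and 37.4%. All 3 libraries of 256c lay above all 3 of Sphere, and the 3 Sphere libraries spanned a wide range. In the mutant the shares were 97.5%, 92.5% and 94.4% at 256c, 91.6%, 95.9% and 93.8% at 1024c, 84.6%, 88.9% and 86.5% at Oblong, and 61.5%, 37.7% and 65.0% at Sphere. The ranges of the genotypes overlapped at every stage. A share is relative, so less mitochondrial RNA and more nuclear RNA cannot be told apart.

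**Figure D1:**
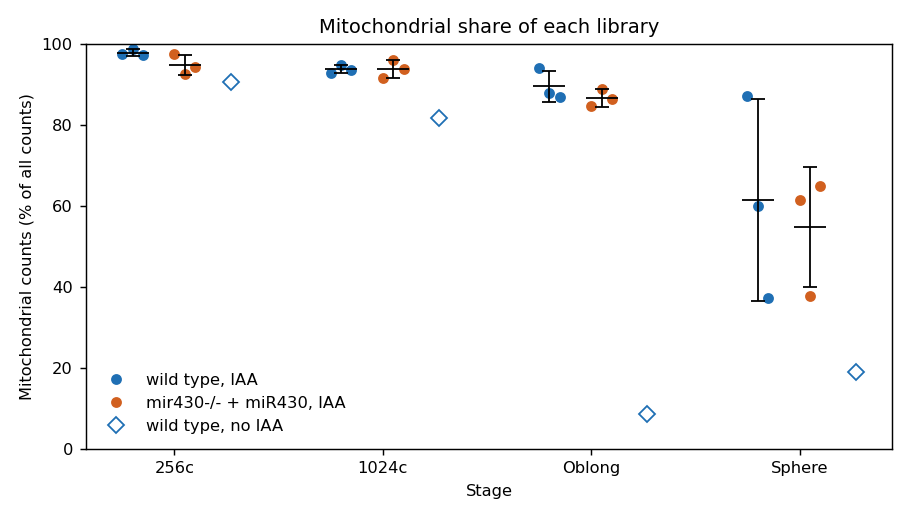
Share of all counts on the 37 mitochondrial genes (vertical axis, %) in each library at the 4 stages (horizontal axis). Filled circles are IAA libraries of wild type (blue) and mutant (orange), black bars are the mean ± SD of 3 libraries, and open diamonds are the single wild type libraries without IAA, each below the 3 IAA libraries of its stage.

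Without IAA, the mitochondrial share from 256c to Sphere was 90.6%, 81.7%, 8.47% and 18.9%. Each of the 4 values lay below all 3 wild type IAA libraries of its stage. The value at Oblong came from the library with the fewest counts.

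Inside the mitochondrial counts, ribosomal RNA was the largest class on average. Over the 24 IAA libraries it took 54.8% ± 5.42 (SD, n = 24), protein genes took 44.9% ± 5.38 and transfer RNAs took 0.327% ± 0.0797. Ribosomal RNA ranged from 41.5% to 63.3% and protein genes from 36.4% to 58.1%. In wild type the ribosomal share averaged 48.1% ± 6.10 at 256c and 57.6% ± 4.86 at Sphere (n = 3 each), and in the mutant 51.0% ± 3.35 and 59.1% ± 4.76. The libraries of 256c and Sphere overlapped in both genotypes.

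The large ribosomal RNA mt-rnr2 was the most counted member and alone held 35.3% ± 3.35 of mitochondrial counts (n = 24), from 27.3% to 39.8%. As a share of all counts it averaged 30.7% ± 4.16 in wild type at 256c and 23.4% ± 11 at Sphere. The small ribosomal RNA mt-rnr1 held 19.5% ± 2.67 of mitochondrial counts, and mt-co1, the catalytic subunit of cytochrome oxidase, held 11.8% ± 1.70. These 3 genes were the 3 most counted members. Of all counts, mt-co1 took 12.4%, 13.1% and 15.4% in the 3 wild type libraries of 256c and 11.3%, 6.36% and 5.14% in those of Sphere. The lowest of the first group lay above the highest of the second.

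Levels of different genes were compared per kilobase of gene length, as percent of mitochondrial counts per kilobase averaged over the 24 IAA libraries. On this scale the ribosomal RNAs mt-rnr2 (21.0 ± 1.99) and mt-rnr1 (20.5 ± 2.80) were close and overlapped. Among protein genes mt-co1 was highest at 7.60 ± 1.1, followed by mt-nd6 at 6.21 ± 1.38, mt-atp6 at 5.63 ± 1.17 and mt-co2 at 4.84 ± 0.657. The ranges of neighbours in this order overlapped over the 24 libraries. Then came mt-cyb (4.01 ± 0.591), mt-co3 (3.83 ± 0.427), mt-nd4l (3.14 ± 0.659) and mt-nd4 (2.97 ± 0.520). The remaining complex I genes mt-nd2, mt-nd5, mt-nd1 and mt-nd3 had 2.50, 2.43, 2.34 and 1.81. The shortest protein gene, mt-atp8, stood far below with 0.392 ± 0.106, which left its overlapping neighbour mt-atp6 14.3-fold higher.

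Transfer RNA genes were lower per kilobase and spread more. Their median was 0.105, against 3.14 for protein genes. The highest were trnQ (glutamine) at 1.49 ± 0.317, trnA (alanine) at 0.577 ± 0.157 and trnS1 (serine) at 0.482 ± 0.211, which are all light-strand genes. The lowest were trnL2 (leucine) at 0.0186, trnH (histidine) at 0.0152 and trnS2 (serine) at 0.00738, which lie next to each other on the heavy-strand side. The ratio of trnQ to trnS2 was 201. The overlapping pair of trnI, on the heavy-strand side, and trnQ, on the light-strand side, differed by 5.93-fold. Across the 37 genes, length and level per kilobase had a Spearman correlation of 0.68, but within the 13 protein genes it was 0.20 and within the 22 transfer RNA genes -0.26. These are descriptions across genes of the same libraries. Along the 12 heavy-strand protein genes, level per kilobase and order had a Spearman correlation of 0.

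**Figure D2:**
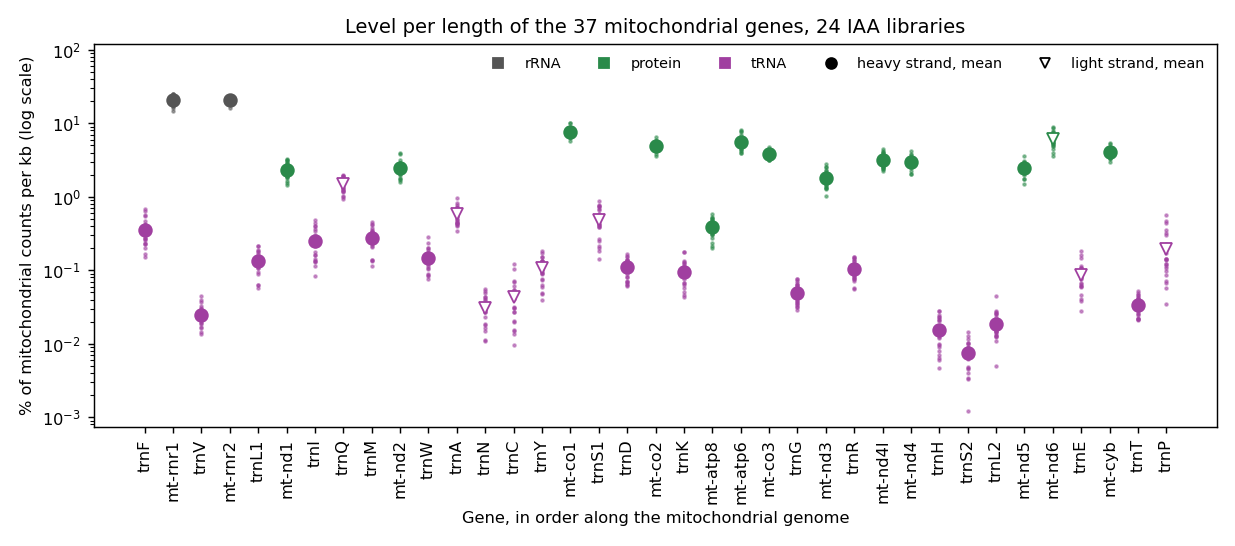
Percent of mitochondrial counts per kilobase (vertical axis, log scale) for the 37 genes in their order along the mitochondrial genome (horizontal axis) in the 24 IAA libraries. Small dots are libraries, large symbols are means, circles are heavy-strand and triangles light-strand genes, and colours give the class. The ribosomal RNAs are highest, mt-atp8 is lowest among protein genes and trnS2 is lowest of all.

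Light-strand genes held 3.43% ± 0.750 of mitochondrial counts (n = 24, range 1.97% to 4.81%), nearly all of it mt-nd6, the only protein gene of that strand, which held 3.22% ± 0.718. Within the transfer RNAs the balance differed. The 8 light-strand genes took 64.7% ± 6.18 of transfer RNA counts, and trnQ alone averaged 0.105% of mitochondrial counts. Replicate 2 of the mutant had the lowest light-strand share of the 3 mutant libraries at every stage, with 2.74%, 2.21%, 1.97% and 2.42% from 256c to Sphere. Its ratio of mt-nd6 to mt-nd5, which are neighbours on opposite strands, was likewise the lowest of the mutant libraries at every stage (0.511, 0.383, 0.413 and 0.522). Wild type replicate 2 also had the lowest light-strand share of its group at 256c, 1024c and Sphere (3.53%, 3.12% and 2.81%). At Oblong replicate 1 was lower (2.97% against 3.02%). The ratio was lowest in wild type replicate 2 at 256c and 1024c (0.580 and 0.674), but not at Oblong and Sphere.

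Members also differed in how steady they were between libraries. The coefficient of variation of the share of mitochondrial counts over the 24 IAA libraries was lowest for mt-rnr2 (0.0948), mt-co3 (0.112) and mt-co2 (0.136). It was highest for trnP (proline, 0.723), trnC (cysteine, 0.638) and trnH (0.464). The rarest member, trnS2, had 2 to 118 counts per IAA library, and mt-rnr2 had 791707 to 4675180.

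The level of each member against the bulk of all genes, not its share of counts, was compared between 256c and Sphere. This used edgeR's quasi-likelihood test under TMM scaling, over 14732 genes with Benjamini-Hochberg adjustment. In wild type all 37 members fell, by a median log2 change of -3.83 (range -4.60 to -2.95), and in the mutant all 37 fell, by a median of -3.69 (range -4.63 to -2.89). The background was 16.2% of all tested genes called lower in wild type and 22.4% in the mutant, and the medians of all tested genes were 0.74 and 0.57. The scale decides this count, because TMM follows the nuclear genes. With total counts as the scale, 7 members were called lower in wild type and 9 in the mutant, the members' medians were -1.19 and -1.28, and the medians of all genes moved to 3.49 and 2.85. The share of all tested genes called lower on this scale is not given here, so the 7 and 9 have no background. The change minus change between genotypes called 0 of 37 members (0 at an unadjusted p under 0.05), with 0.0136% of all genes called.

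Single ribosomal RNA and protein genes gave the following changes under TMM. The cytochrome oxidase gene mt-co1 changed by -3.48 (SE 0.916, adjusted p = 0.00491) in wild type and by -3.35 (SE 0.911, adjusted p = 0.0053) in the mutant. The complex I gene mt-nd3 changed by -4.11 (SE 0.887, adjusted p = 0.00119) in wild type. The light-strand gene mt-nd6 changed by -3.57 (SE 0.866, adjusted p = 0.00276). The smallest wild type falls among ribosomal and protein genes were those of mt-rnr2, -3.0 (SE 0.891, adjusted p = 0.0101), and mt-rnr1, -3.10 (SE 0.872, adjusted p = 0.0074). Without wild type Sphere replicate 3, mt-rnr1, mt-rnr2 and mt-co1 missed the threshold (adjusted p = 0.0759, 0.0983 and 0.0564 in edgeR), and mt-rnr2 also did without wild type Sphere replicate 2 (0.0578). The sizes varied over 12 alternatives of filter, scaling, fit and samples. The smallest wild type falls were -0.404 for mt-rnr1, -0.388 for mt-rnr2, -0.838 for mt-co1, -0.875 for mt-nd6 and -1.38 for mt-nd3. In the same order, the call was lost in 3, 5, 3, 2 and 0 of the 12. For mt-co1 in the mutant the smallest fall was -0.926, and 2 of 12 lost the call.

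Composition inside the mitochondrial counts was compared next. With each library scaled to its mitochondrial total, edgeR called 0 of 37 members between 256c and Sphere in either genotype (0 at an unadjusted p under 0.05), while 73.1% and 68.3% of all tested genes were called. The members make up the total of this scale, so their summed share is fixed and cannot rise or fall. The contrast with all tested genes is therefore no measure of a steady composition, and changes of single members could be missed. The change minus change between genotypes called 0 on this scale too (2.61% of all genes). Read as overlap of libraries, 14 members in wild type and 17 in the mutant had a lower share in all 3 Sphere libraries than in all 3 of 256c, and 0 had a higher one. Of all tested genes, 0.143% and 0.733% were lower and 77.1% and 71.2% higher in this way. In both genotypes these were trnF, trnV, mt-nd1, trnQ, trnA, trnG, mt-nd4 and trnP. Only the 2 ribosomal RNAs had a higher mean at Sphere in both genotypes, with overlapping libraries. The shares are parts of one total, so a higher ribosomal share lowers the others. Overlap was not counted without the ribosomal RNAs, and their part in the lower shares was not tested. Most tested genes rose on this scale, which leaves a small background of lower genes.

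The complex I gene mt-nd1 gives an example. Its share of mitochondrial counts in wild type was 2.23%, 2.79% and 2.99% at 256c and 1.88%, 1.39% and 1.58% at Sphere. In the mutant it was 2.84%, 3.12% and 3.21% at 256c and 1.51%, 1.90% and 2.15% at Sphere. The 256c libraries were above the Sphere libraries in both genotypes. Its log2 change on the mitochondrial scale was -0.72 (SE 0.483) in wild type and -0.72 (SE 0.483) in the mutant, with adjusted p = 0.168 and 0.182 in edgeR.

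Of the members not yet described, the ribosomal RNA mt-rnr1 took 17.7%, 18.3% and 14.2% of mitochondrial counts in wild type at 256c and 18%, 24% and 18.8% at Sphere, and these ranges overlapped. Its neighbour mt-rnr2 took 35.8%, 30.9% and 27.3% at 256c and 39.8%, 38.4% and 33.9% at Sphere, which overlapped as well. Both are parts of the mitochondrial ribosome. The complex IV genes mt-co2 and mt-co3 were close to level, with wild type means of 3.51% ± 0.574 and 3.04% ± 0.309 at 256c and 3.30% ± 0.561 and 3.0% ± 0.470 at Sphere (n = 3 each).

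The further complex I genes were compared in the same way. In wild type mt-nd4 averaged 5.16% ± 0.619 at 256c and 3.65% ± 0.755 at Sphere, and in the mutant 4.40% ± 0.231 and 3.53% ± 0.626. The gene mt-nd5 averaged 5.59% ± 0.892 and 3.70% ± 0.880 in wild type, where its libraries did not overlap, and 4.82% ± 0.532 and 3.80% ± 0.624 in the mutant, where they did. For mt-nd6 the wild type values were 3.37%, 3.29% and 4.13% at 256c and 2.79%, 2.69% and 4.57% at Sphere, so the highest library was at Sphere. Among transfer RNAs, trnQ averaged 0.127% ± 0.00855 at 256c and 0.0883% ± 0.0225 at Sphere in wild type, and trnA 0.05% ± 0.00294 and 0.0302% ± 0.00418, both without overlap.

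Mutant and wild type embryos were compared to see whether captured RNA differs between the genotypes. Under TMM scaling, edgeR called 0 of 37 members at each of the 4 stages, with 0 at an unadjusted p under 0.05, and DESeq2 called 0 as well. The background from 256c to Sphere was 9.47%, 3.39%, 1.7% and 1.1% of tested genes. Members' median log2 differences were -0.56, 0.28, 0.07 and -0.60. Markers of embryonic cell layers differed between the same groups. The enveloping layer list summed to 0 to 4.89 CPM of nuclear counts in wild type, where 1 of its 5 genes was detected, and 147 to 311 in the mutant at 256c, and to 129 to 168 against 283 to 5018 at 1024c, and it overlapped at Oblong and Sphere. The yolk syncytial layer list summed to 450 to 1322 against 1982 to 6968 at 256c and overlapped at the later stages. The part of these layers in the genotype comparisons was not tested. The single-gene standard errors were 0.659 or more. A call needs a difference well above its standard error, so differences larger than 0.659 could also be missed by this fit. In the authors' deposited table all 37 members were flagged as mitochondrial and marked not differentially expressed at each stage, with lowest adjusted p-values of 0.331, 0.260, 0.341 and 0.895.

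With libraries scaled to their mitochondrial total, edgeR again called 0 of 37 at each stage (0 at an unadjusted p under 0.05), against 12.4%, 2.04%, 1.08% and 1.07% of all tested genes. The summed share of the members is fixed on this scale, and differences of single members could be missed here too. Overlap of libraries was counted as a description. At 256c, 8 members had a higher share in all 3 mutant libraries than in all 3 wild type libraries and 2 a lower one (background 18.7% higher and 3.1% lower of all tested genes, on a scale that moved the median of all genes by 1.01). At 1024c the counts were 7 and 0 (7.14% and 6.31%), at Oblong 6 and 1 (14% and 7.27%), and at Sphere 3 and 0 (4.68% and 2.68%). The members higher in the mutant, 21.6% of the 37 at 256c and 16.2% at Oblong, were near the background of those stages, and at 1024c they were 18.9% and at Sphere 8.11%.

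An exact permutation test over samples was added after seeing the data. It permuted genotype within each stage (160000 arrangements, two-sided, smallest p 1.25e-05) on log2 shares of mitochondrial counts with 0.5 added to each count, and was adjusted over all 14732 genes. It takes libraries of different stages as independent. Same-numbered libraries of different stages had deviations correlated above 0.1 in 15 of 18 pairs in wild type (median 0.44) and 17 of 18 in the mutant (median 0.66), so its p-values may be too small. Of 37 members, 10 were higher and 1 was lower in the mutant, with a background of 12.3% higher and 4.25% lower (16.6% in all) of tested genes. This balance depended on the scale: with median-of-ratios scaling over the mitochondrial genes, 7 were higher and 4 lower (trnQ, trnA, mt-co1 and mt-cyb), and 8 of the 11 calls were shared. The background with median-of-ratios scaling was 1633 of the 14732 tested genes called in either direction. Scaled to the mitochondrial total, the called members were 6 of 22 transfer RNAs, 5 of 13 protein genes and 0 of 2 ribosomal RNAs. Of the 9 light-strand genes only trnP was called on that scale, whereas median-of-ratios scaling also called the light-strand genes trnQ and trnA.

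The transfer RNA for phenylalanine, trnF, is the first gene of the heavy-strand side and differed at all 4 stages without overlap. Its share of mitochondrial counts in wild type was 0.0181%, 0.0219% and 0.0237% at 256c, 0.0158%, 0.0181% and 0.0236% at 1024c, 0.0188%, 0.0157% and 0.0160% at Oblong, and 0.0140%, 0.0114% and 0.0105% at Sphere. In the mutant it was 0.0296%, 0.0465% and 0.0393%, then 0.0326%, 0.0445% and 0.0379%, then 0.0261%, 0.0285% and 0.0284%, and 0.0192%, 0.0259% and 0.0270%. The log2 difference was 0.89, with an adjusted exact permutation p = 0.00106. The mt-rnr1 gene beside it did not pass (0.10, adjusted exact permutation p = 0.375).

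The transfer RNA for lysine, trnK, abuts mt-atp8 and also differed at all 4 stages without overlap. Wild type shares were 0.00670%, 0.00846% and 0.00673% at 256c, 0.00555%, 0.00601% and 0.00496% at 1024c, 0.00458%, 0.00314% and 0.00365% at Oblong, and 0.00489%, 0.00333% and 0.00424% at Sphere. Mutant shares were 0.00940%, 0.0128% and 0.00888%, then 0.00661%, 0.0131% and 0.00980%, then 0.00665%, 0.00644% and 0.00784%, and 0.00673%, 0.00929% and 0.00609%. The log2 difference was 0.75 (adjusted exact permutation p = 0.00106).

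The next gene, mt-atp8, had a mean share of 0.0696% ± 0.00502 in wild type and 0.0853% ± 0.00977 in the mutant at 256c (n = 3 each), and 0.0548% ± 0.00360 against 0.0828% ± 0.00703 at 1024c. The means were 0.0427% ± 0.00996 against 0.0659% ± 0.0144 at Oblong, and 0.0430% ± 0.00887 against 0.0738% ± 0.00779 at Sphere. Oblong was the stage at which its libraries overlapped. The log2 difference was 0.58 (adjusted exact permutation p = 0.0021), and that of its overlapping neighbour mt-atp6 was 0.31 (adjusted exact permutation p = 0.0191).

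The complex I gene mt-nd2 was higher in the mutant without overlap at 256c, 1024c and Oblong. Its wild type shares were 2.56%, 2.59% and 2.76% at 256c, 2.11%, 2.06% and 2.52% at 1024c, 2.51%, 1.87% and 1.86% at Oblong, and 2.30%, 1.66% and 1.75% at Sphere. Its mutant shares were 3.30%, 4.01% and 3.02%, then 2.94%, 4.12% and 2.63%, then 2.68%, 3.0% and 2.78%, and 2.21%, 3.03% and 2.53%. Mutant replicate 2 was the highest of the 3 mutant libraries at every stage. The log2 difference was 0.45 (adjusted exact permutation p = 0.00161). Directly before mt-nd2 lies trnM, for methionine, whose log2 difference was 0.70 (adjusted exact permutation p = 0.00721).

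The light-strand gene trnP showed the largest difference of the 37. In wild type its mean share from 256c to Sphere was 0.00942% ± 0.000855, 0.00948% ± 0.00228, 0.00650% ± 0.00279 and 0.00491% ± 0.00252 (n = 3 each). In the mutant it was 0.0278% ± 0.0101, 0.0257% ± 0.0103, 0.0159% ± 0.00754 and 0.00934% ± 0.00592. The libraries did not overlap at the first 3 stages and overlapped at Sphere. The log2 difference was 1.26 (adjusted exact permutation p = 0.00332). In edgeR's effect averaged over the stages, with mitochondrial scaling, trnP was the single member called (1.30, SE 0.447, adjusted p = 0.0246) and 2 members had an unadjusted p under 0.05, against 22.1% of tested genes called, and with TMM scaling 0 members were called (1 at an unadjusted p under 0.05), against 25.4%.

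The remaining called members were trnV (0.46, adjusted exact permutation p = 0.00857), which lies between the ribosomal RNA genes, trnL1 (0.54, p = 0.0227 by the same exact test, adjusted) and mt-nd1 beside it (0.26, p = 0.0265 by the same exact test, adjusted). Without wild type Sphere replicate 2 or mutant Sphere replicate 3, trnL1 missed the threshold (adjusted p = 0.0511 and 0.0510), as did mt-nd1 (0.0583 and 0.0573, and 0.0550 without mutant Sphere replicate 2). The lower member, mt-cyb, had a mean share of 5.32% ± 0.769 in wild type and 4.60% ± 0.577 in the mutant at 256c, and 4.81% ± 0.622 against 4.02% ± 0.754 at Sphere. Its libraries overlapped at every stage. Its log2 difference was -0.22 (adjusted exact permutation p = 0.0425), and the call was lost in 15 of 26 alternatives (adjusted p up to 0.0815). Scaling by the median of ratios over the mitochondrial genes ended the calls of trnV, mt-nd1 and mt-atp6 (adjusted p = 0.231, 0.452 and 0.477 by the same exact test). The calls of trnF, trnM, mt-nd2, trnK, mt-atp8 and trnP held in all 26, which repeat the same exact test without a library or with another scaling. In edgeR's effect averaged over the stages, with mitochondrial scaling, trnF, trnM, mt-nd2, trnK and mt-atp8 were not called. Their adjusted p in edgeR were 0.117, 0.297, 0.170, 0.229 and 0.319.

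**Figure D3:**
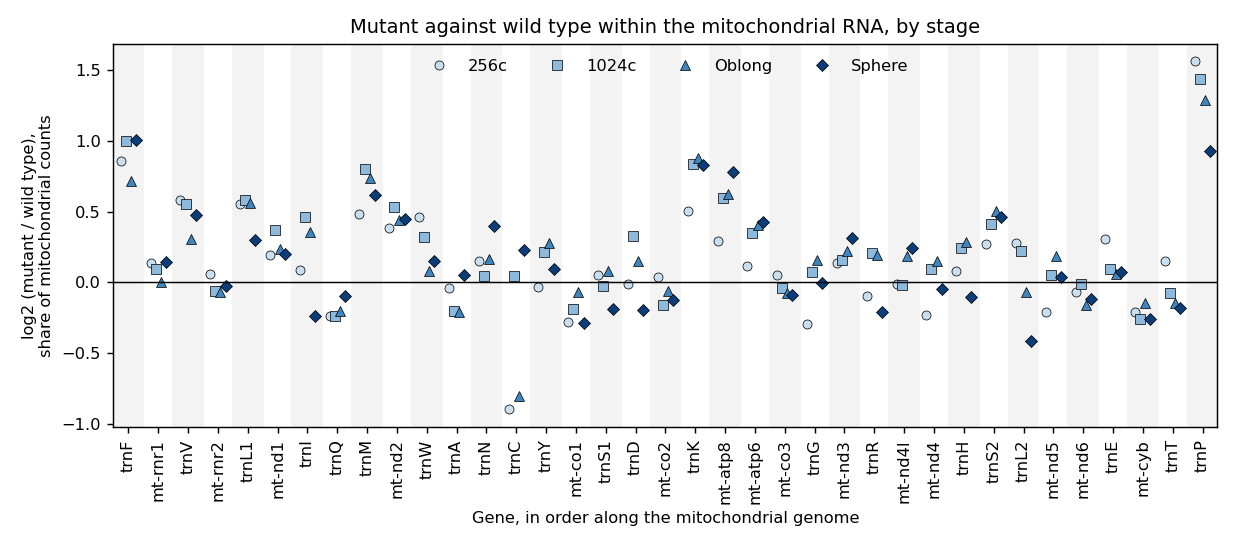
Log2 ratio of the mean mutant share to the mean wild type share of mitochondrial counts (vertical axis) for the 37 genes in genome order (horizontal axis) at 4 stages (symbols; each mean is of 3 IAA libraries, and no error is drawn). Points of trnF, trnK, mt-atp8, mt-nd2, trnM and trnP lie above 0 at all stages, as do those of other genes, some of them not called (such as mt-rnr1, mt-nd3 and trnE). Those of mt-cyb, mt-co1, mt-nd6 and trnQ lie below 0 at all stages.

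**Figure D4:**
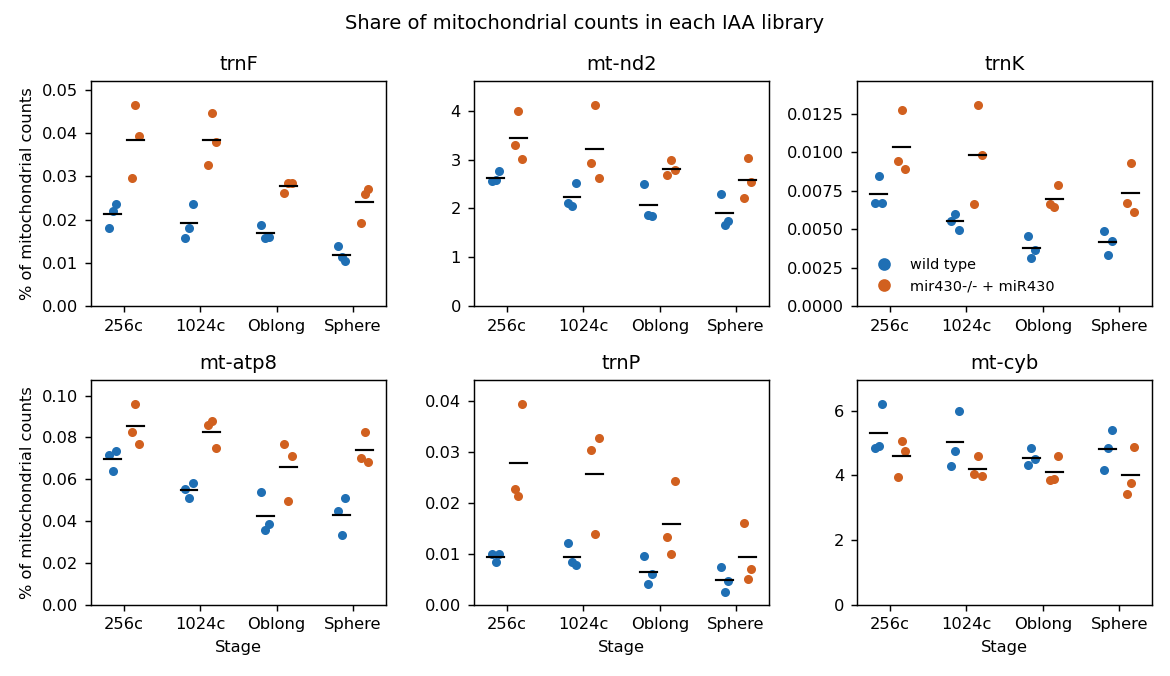
Share of mitochondrial counts (vertical axes, %, starting at 0) of 6 genes in each IAA library by stage (horizontal axes), wild type in blue and mutant in orange, with black bars at the means of 3 libraries. The colours do not overlap at any stage for trnF and trnK, and overlap at every stage for mt-cyb.

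With the 4 stages averaged per replicate number, which leaves 3 values against 3 and a smallest possible exact p of 0.1, 8 members had all mutant values above all wild type values and 0 below. These were trnF, mt-nd1, trnM, mt-nd2, trnK, mt-atp8, mt-atp6 and trnP. This was not counted over all tested genes, so the 8 have no background and are a description only. The complex IV gene mt-co1 had a lower mean in the mutant at all 4 stages. It did not pass when scaled to the mitochondrial total (-0.21, adjusted exact permutation p = 0.0562). With median-of-ratios scaling over the mitochondrial genes it was called lower (-0.374, adjusted exact permutation p = 0.00123). At 256c its shares were 11.3%, 10.7% and 12.4% in the mutant and 12.7%, 13.2% and 15.8% in wild type, without overlap, and at the other stages the libraries overlapped. Among the other members that did not pass on the mitochondrial total, log2 differences ran from -0.25 for trnC to 0.40 for trnS2, the rarest member. Values were -0.12 for mt-nd6, -0.02 for mt-rnr2 and 0.02 for mt-nd5.

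Ratios between members of one library do not depend on the nuclear counts, and 6 were tested by exact permutation within stages, with p-values adjusted over the 6. The ratio of mt-rnr1 to mt-rnr2, which lie on either side of trnV on the same strand, was 0.574 ± 0.0563 in the mutant and 0.529 ± 0.0534 in wild type (SD, n = 12 each, log2 difference 0.12, adjusted exact permutation p = 0.139). Without mutant Oblong replicate 3 this passed (0.15, adjusted p = 0.0355). The ratio of mt-nd6 to mt-nd5, one gene of each strand, was 0.723 ± 0.224 against 0.779 ± 0.188 (log2 difference -0.14, adjusted exact permutation p = 0.501). The ratio of mt-co1 to mt-cyb was 2.60 ± 0.258 against 2.58 ± 0.254 (0.01, adjusted exact permutation p = 0.849), and its sign changed in 7 of 24 fits that each left out 1 library.

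The wild type libraries without IAA were set against those with IAA. All 4 without IAA are replicate 4 by their titles and all with IAA are replicates 1 to 3, so IAA, the replicate set and the lower depth cannot be told apart, and the differences below are between these sets of libraries. Under TMM scaling over 12267 genes, all 37 members had a higher level with IAA (median log2 difference 3.46; median of all genes 0.36), and 37 had an unadjusted p under 0.05 in edgeR. After adjustment 2 were called, trnV (4.2, SE 0.728, adjusted p = 0.0395) and trnL2 (4.41, SE 0.789, adjusted p = 0.0395), with a background of 0.0163% called higher and 0.0326% in either direction. Without the Oblong library lacking IAA the median was 2.98, all 37 were higher, 36 had an unadjusted p under 0.05 and 0 were called. The share of all tested genes at an unadjusted p under 0.05 is not given here, so the 37 and 36 have no background. These 2 calls are fragile: no member was called without the library lacking IAA at any 1 stage, nor without wild type 256c replicate 1 or 2, 1024c replicate 2, Oblong replicate 3 or Sphere replicate 2, and 1 was called without 256c replicate 3.

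Scaled to the mitochondrial total, trnS1 and trnP were lower with IAA. The share of trnS1 without IAA, in order of stage, was 0.0617%, 0.134%, 1.72% and 0.0283%. The first 3 values were above every wild type IAA library of their stage and the last was within. The log2 differences, IAA against none, were -2.73 for trnS1 (SE 1.03, adjusted p = 0.0157) and -1.83 for trnP (SE 0.770, adjusted p = 0.0286), against 84.3% of all tested genes called lower on this scale. Without the Oblong library lacking IAA they were -0.91 and -1.03 (adjusted p = 0.252 and 0.167), and neither was called without wild type Oblong replicate 2 or 3; without the Sphere library lacking IAA only trnS1 was. The level of trnP lay between 0.0108% and 0.0822% without IAA, above the IAA libraries at each stage, and beyond counting error at 3 of the 4.

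Depth limited what the libraries without IAA could show. At Oblong 14 members had no count among 12159 mitochondrial counts, where 0 allows a share of up to 0.0247% (3 counts), a limit above the level of each of them in the IAA libraries, so no difference was detectable. At Sphere 3 members were at 0 of 148547, which allows up to 0.00202%. Counting a member as outside only where its 95% Wilson interval cleared all 3 IAA libraries, which covers counting error only, 16 were above and 4 below at 256c, 21 and 1 at 1024c, 7 and 10 at Oblong, and 4 and 4 at Sphere. Nuclear genes were not counted in this way, so these numbers have no background over all genes.

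On that reading mt-nd6 was above the IAA libraries at all 4 stages and mt-rnr1 below at all 4, and they were the only such members. The share of mt-nd6 without IAA was 4.37%, 5.16%, 8.79% and 4.73% from 256c to Sphere, against highest IAA values of 4.13%, 3.62%, 3.50% and 4.57%. The share of mt-rnr1 was 12.6%, 13.8%, 9.70% and 16.9%, against lowest IAA values of 14.2%, 15.2%, 18.4% and 18%. The light-strand share as a whole was 4.66%, 5.58%, 10.7% and 4.87% without IAA.

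**Figure D5:**
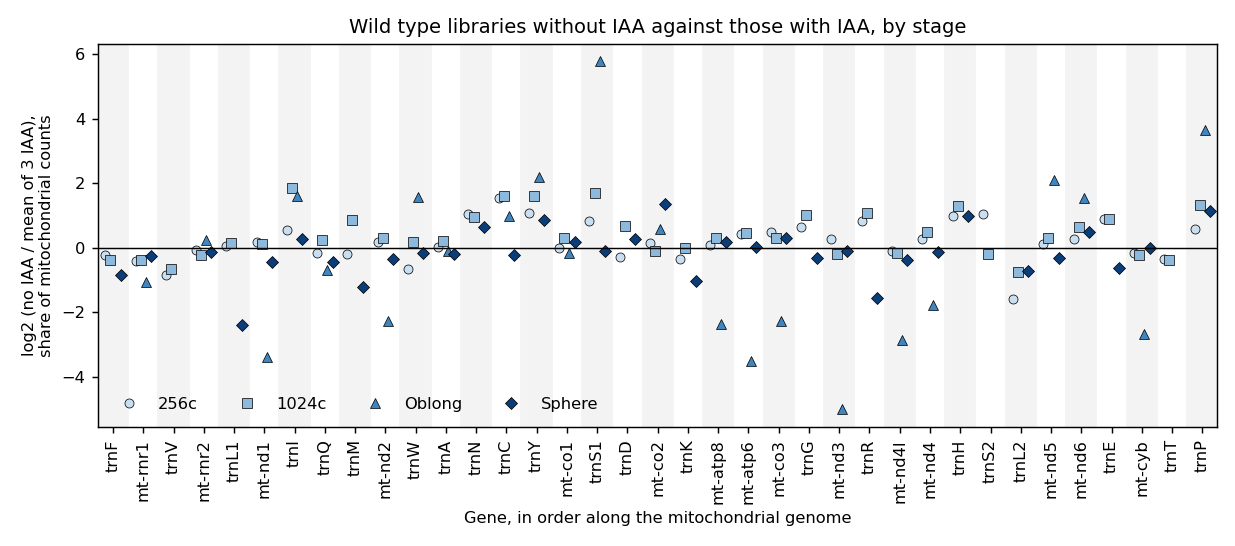
Log2 ratio of the share of mitochondrial counts in the single wild type library without IAA to the mean of 3 IAA libraries (vertical axis) for the 37 genes in genome order (horizontal axis) at 4 stages (symbols). Genes without a count are not drawn (14 at Oblong, 3 at Sphere), there is 1 library per symbol and so no error, and mt-nd6 lies above 0 and mt-rnr1 below 0 at all stages.

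The ratio of mt-rnr1 to mt-rnr2 was 0.529 ± 0.0534 with IAA (n = 12) and 0.397 ± 0.124 without (n = 4), a log2 difference of 0.47 (adjusted exact permutation p = 0.0352). The ratio of mt-co1 to mt-cyb was 2.58 ± 0.254 with IAA and 5.96 ± 5.60 without, where the Oblong library had 14.3 (log2 difference -0.84, adjusted exact permutation p = 0.0352). Without that library the differences were 0.20 and -0.29 (adjusted p = 0.141 and 0.139). Both also missed the threshold without the 256c or the 1024c library lacking IAA (adjusted exact permutation p = 0.139 and 0.0938) and without wild type Sphere replicate 2 or 3 (0.0625). A test without a library has fewer arrangements and so a higher smallest possible p. Without the 256c or the 1024c library the differences were larger, 0.52 and 0.58 for the first ratio and -1.07 and -0.95 for the second. The ratio of mt-nd6 to mt-nd5 was 0.779 ± 0.188 with IAA and 0.938 ± 0.457 without (log2 difference -0.19, adjusted exact permutation p = 0.501), and without the Oblong library the difference was -0.44 (adjusted exact permutation p = 0.139).

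Nuclear genes that copy or transcribe mitochondrial DNA, or that process, stabilise or degrade mitochondrial RNA, were followed in a list of 38. Of these, 32 were in the table and 30 were tested under TMM scaling. Between genotypes 1 was called, the ribosomal RNA methyltransferase gene mrm2, lower in the mutant at 1024c (log2 difference -2.81, SE 0.754, adjusted p = 0.0358 in edgeR, mean 0.305 against 2.26 CPM). That is 1 of 30 where 3.39% of all genes were called, a share near the background. From 256c to Sphere in wild type, 4 rose and 8 fell (background 30.7% and 16.2%), and in the mutant 2 rose and 10 fell (26.8% and 22.4%). The medians over the list were -0.81 and -0.67, against 0.74 and 0.57 over all genes. No difference between the genotypes' changes was called (0 of 30, background 0.0136%).

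The genes that rose with the lowest adjusted p in wild type were grsf1, an RNA-binding protein of mitochondrial RNA granules (3.82, SE 0.964, adjusted p = 0.00363 in edgeR), polg2, the accessory subunit of the mitochondrial DNA polymerase (2.76), and twnk, the replicative helicase (1.88). In the mutant polg2 (4.40) and twnk (1.60) rose. The falls with the lowest adjusted p in wild type were those of endog, a mitochondrial nuclease (-2.96), angel2 (-2.09) and slirp, which with lrpprc stabilises mitochondrial messenger RNA in mammals (-2.24). In the mutant they were those of angel2 (-2.65), slirp (-2.67) and polrmt, the mitochondrial RNA polymerase (-2.44, SE 0.595, adjusted p = 0.00286). With IAA against none, 0 of 28 tested were called by edgeR (background 0.0326%).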

How the data were processed

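Captured, labelled RNA of zebrafish embryos was sequenced in 28 libraries. The authors deposited whole-number counts per gene, with the gene's length, for reads in proper orientation, per the file headers, and what the word filtered in the column names removed is unknown here. HISAT, featureCounts, DESeq2 and build GRCz11 are named per the submitters' processing notes, without versions. The authors' deposited table gives log2 fold changes and adjusted p-values per stage for mutant against wild type.

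From the counts were computed each member's share of mitochondrial and of all counts. Counts were tested with edgeR 4.0.16 in R 4.3.3 (quasi-likelihood, Benjamini-Hochberg, threshold 0.05), with all IAA libraries in one fit, under TMM scaling and scaled to the mitochondrial total, and the wild type libraries alone for IAA. DESeq2 1.42.0 was an alternative. The edgeR fit was tested on simulated counts with large changes planted in nuclear genes. No mitochondrial gene was changed there, smaller changes were not tried, and the exact tests were not tested in this way. Alternatives changed the filter, the scaling, the samples in the fit, the replicate block and each replicate. The exact test over all stages (pseudocount 0.5) was chosen after the data were seen. All 37 members could be named, in depth the ribosomal RNA and protein genes and those transfer RNAs that were called or were among the highest 3 and lowest 3 by mean share. From a list of 38 nuclear genes, those called were named, at most 3 each way per comparison by adjusted p. Members and lists were chosen with earlier results of these data known. Depth was 4960211 to 13803137 counts per IAA library and 143490 to 1105928 without IAA. Intervals and floors cover counting error only. No sequences are printed.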

Additional observations from a re-analysis of the deposited data

Results flagged for a closer look

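In the single libraries without IAA, 7 members (mt-nd1, trnQ, mt-nd2, mt-co1, mt-atp6, mt-co3 and mt-nd4) had a share of mitochondrial counts whose 95% Wilson interval lay above all 3 wild type IAA libraries of at least 1 stage and below all 3 of another. The difference between stages was not tested, since each stage has 1 library without IAA. Without the Oblong library, 3 members met this description. Nuclear genes were not counted in the same way, so neither number has a background over all genes. The share of mt-nd1 without IAA from 256c to Sphere was 3.05%, 2.32%, 0.181% and 1.2%, and that of mt-nd2 was 2.99%, 2.73%, 0.428% and 1.51%.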

How the results depend on the processing

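Under TMM scaling the number of members that fell from 256c to Sphere was 37 in each genotype, and 32 to 37 in wild type and 35 to 37 in the mutant with 1 library left out. With total-count scaling it was 7 and 9. With IAA against none, members called under TMM numbered 2, but 19 with no filter on low counts and 36 in DESeq2 (not run without the Oblong library lacking IAA), and 0 to 3 with 1 library left out. On the mitochondrial scale, the change in wild type called 0 members, 2 with median-of-ratios scaling and 0 to 1 with 1 library left out. With IAA against none on that scale 2 members were called, 1 with no filter and 1 with the total taken without ribosomal RNA, and 0 to 3 with 1 library left out. Without the ribosomal RNA genes the mitochondrial share was 95.9%, 87.3%, 78.1% and 44.0% in wild type from 256c to Sphere, and 90.2%, 87.4%, 73.7% and 34.2% in the mutant. Per kilobase, ribosomal RNA, protein genes and transfer RNA made up 44.3%, 50.8% and 4.92% of the mitochondrial signal, and light-strand genes 9.80%. Members called between genotypes over all stages were 11 by exact permutation, 9 to 12 with 1 library left out, and 1 by edgeR's effect averaged over the stages. With 1 library left out, the log2 difference in mt-rnr1 to mt-rnr2 ran from 0.0855 to 0.147 between genotypes and from 0.200 to 0.593 for IAA. That in mt-nd6 to mt-nd5 ran from -0.437 to 0.0261 for IAA, turning sign without the Sphere library lacking IAA, and that in mt-co1 to mt-cyb from -0.0180 to 0.0454 between genotypes and from -1.07 to -0.289 for IAA. The cause of these changes was not tested. For the alternative fits in this paragraph, the shares of all tested genes called are not given, so their counts of members have no background.

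Replicate numbers were not shown to pair the libraries: over the 37 members, 9 of 12 same-numbered pairs of mutant and wild type libraries had deviations correlated above 0.1 (range -0.22 to 0.82), and 9 of 12 correlated best with their own number, a hint from the data. At 256c and at Sphere all 3 pairs were above 0.1 (0.19 to 0.52 and 0.30 to 0.68) and correlated best with their own number, at 1024c 2 and at Oblong 1. Between stages, 15 of 18 pairs in wild type and 17 of 18 in the mutant were above 0.1. Of these stage pairs, 15 of 18 in wild type and 15 of 18 in the mutant correlated best with their own number. Each library had 3 candidates to match. Over 3148 nuclear genes with at least 5 counts in every IAA library, 9 of 12 pairs between genotypes were above 0.1. Of these 12 pairs, 9 correlated best with their own number (range -0.15 to 0.63). Between stages, 13 of 18 nuclear pairs in wild type and 14 of 18 in the mutant correlated best with their own number. With the replicate number as a block, TMM calls were 37 and 37 from 256c to Sphere and 0 between genotypes. The wild type change on the mitochondrial scale called 1 member with this block. The shares of all tested genes called in these block fits are not given here, so their counts of members have no background. The mt-rnr1 to mt-rnr2 difference between genotypes, 0.117, had an adjusted exact permutation p = 0.0459 with the block. But on means over the stages per replicate number (3 against 3, smallest possible p 0.1) this difference had p = 0.5 (adjusted 0.75) by exact permutation.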
